A study of Mus musculus with 17 samples.

Results

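The 10 genes described here encode the calcium handling machinery of cardiomyocytes: Ryr2, Atp2a2, Pln, Casq2, Slc8a1, Cacna1c, Hrc, Trdn, Jph2 and Dhrs7c. They were chosen by name for what their proteins do, and all 10 have a feature of their own among the 31647 features of the count table. Massive analysis of cDNA ends (MACE) was used to count transcripts in 17 hearts of young adult male C57BL/6J wild-type mice. MACE sequences only the 3′ end of each polyadenylated transcript, so counts do not grow with transcript length, and molecular identifiers remove PCR copies. In 9 mice the left anterior descending artery (LAD) was permanently ligated, and RNA came from the infarct zone 5 days later. The other 8 mice were sham operated, with no ligation, and RNA came from the left ventricle. No transgene or genetic deletion was part of either group, and the infarct zone was compared with whole left ventricular tissue of other animals, so the 2 groups differ in region as well as in injury.

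Each heartbeat depends on calcium entering and leaving the cytosol of the cardiomyocyte. Depolarisation opens L-type calcium channels in the transverse tubules, and the calcium that enters opens ryanodine receptors on the facing sarcoplasmic reticulum, so that stored calcium is released and the myofilaments contract. In relaxation the calcium pump SERCA2 returns calcium to the reticulum, where calsequestrin buffers it, and the sodium-calcium exchanger extrudes the rest.

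In the infarct zone, 9 of the 10 genes were lower than in sham tissue, by 5.93-fold for Jph2 to 37.9-fold for Dhrs7c, where 33.1% of all genes tested were lower. The tenth, Slc8a1, was counted too rarely in either group to compare. In bulk tissue, fewer cells of a type and less RNA per cell cannot be told apart. The fall was uneven. Scaled to contractile genes of the same tissue, transcripts of the calcium pump, its inhibitor phospholamban, the histidine-rich calcium-binding protein Hrc and Dhrs7c were still lower. Those of the release channel Ryr2, calsequestrin 2, triadin and the L-type channel Cacna1c were not called lower. Jph2 was called higher, at a log2 fold change of 0.68, where 95.4% of all genes tested were called higher and 0.984% lower. The median of all genes on that scale was 3.52, and of the 12 contractile genes themselves 3 were called lower and 2 higher. The calls of Hrc and Dhrs7c on that scale held in each alternative tried, and those of Atp2a2, Pln, Jph2, Casq2, Trdn and Cacna1c depended on the contractile genes or libraries used. The micropeptide gene Strit1, whose product activates the calcium pump, had a fitted fall of 58.1-fold. The size of that fall rests on 0 to 26 counts per infarct zone library.

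Library totals ran from 1237675 to 4738307 counts. Values are given as CPM, which are counts per 1000000 of a library size that was scaled by the trimmed mean of M values (TMM). Differences were tested with edgeR's quasi-likelihood test over 12301 genes with enough counts, with Benjamini-Hochberg adjustment and a threshold of 0.05. Infarct zone replicate 1 stood apart from the other 8. Mitochondrially encoded features took 19.5% of its counts, against 4.22 to 6.78% in the other infarct zone libraries and 22.9 to 32.4% in sham. The summed level of 13 cardiomyocyte marker genes was 34172 CPM in this library, 3389 to 7949 CPM in the other infarct zone libraries and 71554 to 87708 CPM in sham. Falls of the calcium handling genes tested are therefore also given without it, as are calls that it changed.

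Promoter sequences are shown for 3 of the genes: Casq2, which was not called different from the 12 contractile genes, and Pln and Hrc, which were called lower. The results for Casq2 and Pln changed with the contractile genes used, so the 3 are examples. Each is the 250 bases before the RefSeq transcription start on the plus strand of GRCm38.p6, written 5′ to 3′. They lie at chr3:102086165-102086414 for Casq2, chr10:53337436-53337685 for Pln and chr7:45335019-45335268 for Hrc. Capitals mark a MEF2 site in Casq2, and in Pln first a TATAAA match and then an AGATAA match on the opposite strand, which reads TTATCT here.
Casq2: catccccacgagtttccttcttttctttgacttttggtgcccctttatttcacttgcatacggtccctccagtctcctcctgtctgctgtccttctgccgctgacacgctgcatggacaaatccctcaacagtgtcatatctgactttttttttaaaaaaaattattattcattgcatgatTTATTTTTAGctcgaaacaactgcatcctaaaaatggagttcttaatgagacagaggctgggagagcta
Pln: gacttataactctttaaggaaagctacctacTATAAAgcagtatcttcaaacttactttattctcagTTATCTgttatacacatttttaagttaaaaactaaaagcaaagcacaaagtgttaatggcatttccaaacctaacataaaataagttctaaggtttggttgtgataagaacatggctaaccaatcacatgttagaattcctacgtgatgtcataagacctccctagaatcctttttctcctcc
Hrc: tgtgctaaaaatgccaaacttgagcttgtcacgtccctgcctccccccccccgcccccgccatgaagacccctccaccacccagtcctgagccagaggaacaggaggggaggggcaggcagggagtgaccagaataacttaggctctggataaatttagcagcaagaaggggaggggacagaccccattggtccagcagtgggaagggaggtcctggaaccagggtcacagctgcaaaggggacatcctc

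RefSeq windows of this kind were found for 7 of the 10 genes, 10 windows in all, and not for Atp2a2, Trdn or Dhrs7c. Both strands were searched for motifs of factors known from heart muscle. The MEF2 site, bound by factors of muscle differentiation, occurred in Casq2 alone, 69 to 60 bases before its start, and in 2.92% of all 32851 windows of the same length. The AGATAA site of GATA factors occurred in Pln and Slc8a1 and in 9.99% of all windows. TATAAA occurred in Pln alone, at 219 to 214 bases before the start, and in 12.4% of all windows. The short motifs were common everywhere: the E-box CANNTG was in all 7 genes and 66.2% of all windows, and the NKX2-5 motif AAGTG was in Casq2, Jph2 and Pln and in 40.7% of all windows. Neither the CArG box of serum response factor (1.47% of all windows) nor the TEAD motif CATTCC (12.6%) was found in any of the 7. These are matches of letters, which say nothing of binding.

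Calcium crosses the sarcolemma through the products of Cacna1c and Slc8a1. Cacna1c (ENSMUSG00000051331, GRCm38 chromosome 6, 118587240 to 119196418, minus strand) encodes the pore of the L-type calcium channel. Its lowest, median and highest values were 79.4, 118.9 and 151 CPM in the 8 sham libraries and 10.1, 14.5 and 51.8 CPM in the 9 infarct zone libraries. The groups did not overlap, and the highest infarct zone value was that of replicate 1, with the next at 21.8 CPM. The sham mean of 120 ± 21.3 CPM (SD, n = 8) and the infarct zone mean of 19.8 ± 12.7 CPM (SD, n = 9) differed by a log2 fold change of -2.62 ± 0.24 (SE, adjusted p = 2.1e-09, edgeR).

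Slc8a1 (ENSMUSG00000054640, chromosome 17, 81373105 to 81738377, minus strand) encodes the sodium-calcium exchanger NCX1, the main route by which calcium leaves the cardiomyocyte. It had 0 to 6 counts per sham library and 0 to 4 per infarct zone library and did not pass the filter on low counts. Pooled over libraries, 17 of 21172679 counts in sham were its own, or 0.803 per 1000000 counts (95% exact Poisson interval 0.468 to 1.29, counting error only). In the infarct zone the pooled value was 18 of 22715246, or 0.792 per 1000000 counts (0.470 to 1.25). The intervals overlap almost wholly, and no difference was detectable at this depth. These shares are of unscaled totals. With TMM scaling and no filter on low counts edgeR gave a log2 fold change of -0.87 ± 0.61 (SE, adjusted p = 0.272), and DESeq2 gave -0.98 ± 0.65 (adjusted p = 0.197). The annotation places an antisense gene, AC122399.1, over the 3′ end of Slc8a1, and that gene has no row of its own in the table. Whether reads of this 3′ end were lost in counting was not tested, so the level of Slc8a1 is uncertain.

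Of the release side, Ryr2 (ENSMUSG00000021313, chromosome 13, 11553102 to 12106945, minus strand) encodes the ryanodine receptor, the channel through which the reticulum releases its calcium. Sham libraries ran from 519 to 791 CPM with a median of 654 CPM, and infarct zone libraries from 35.4 to 283 CPM with a median of 61.3 CPM. No infarct zone library reached the lowest sham value, and without replicate 1 the highest was 88.9 CPM. The means of 660 ± 96.9 CPM (SD, n = 8) and 84.3 ± 75.8 CPM (SD, n = 9) differed by -2.97 ± 0.32 on the log2 scale (SE, edgeR adjusted p = 1.71e-08).

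Jph2 (ENSMUSG00000017817, chromosome 2, 163336242 to 163397993, minus strand) encodes junctophilin 2, which tethers the reticulum to the transverse tubule. It showed the smallest fitted fall of the 9 genes tested, within the error of Cacna1c and Trdn. Its lowest, median and highest levels were 146, 200.4 and 257 CPM in sham and 18.8, 33.0 and 73.6 CPM in the infarct zone, with no overlap. The log2 fold change from 201 ± 34.3 CPM (SD, n = 8) to 34.3 ± 16.4 CPM (SD, n = 9) was -2.57 ± 0.21 (SE, edgeR adjusted p = 3.2e-10).

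Triadin and calsequestrin 2 form the luminal end of the release complex. Trdn (ENSMUSG00000019787, chromosome 10, 33080554 to 33476709, plus strand) encodes the anchor that links calsequestrin to the ryanodine receptor. It ran from 400.4 to 544 CPM in sham with a median of 442 CPM, and from 39.4 to 226 CPM in the infarct zone with a median of 55.8 CPM. Casq2 (ENSMUSG00000027861, chromosome 3, 102086415 to 102146514, plus strand), the calcium buffer of the reticulum, ran from 564 to 795 CPM in sham with a median of 677 CPM, and from 43.4 to 319 CPM in the infarct zone with a median of 72.3 CPM. In both genes the groups were fully separated, and replicate 1 was the highest of the infarct zone. Trdn changed from 451 ± 45.2 CPM (SD, n = 8) to 73.4 ± 58.6 CPM (SD, n = 9), by -2.63 ± 0.28 (log2, SE, edgeR adjusted p = 1.89e-08). Casq2 changed from 684 ± 70.2 CPM (SD, n = 8) to 95.4 ± 85.7 CPM (SD, n = 9), by -2.85 ± 0.31 (log2, SE, edgeR adjusted p = 3.11e-08).

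Hrc (ENSMUSG00000038239, chromosome 7, 45335290 to 45338974, plus strand) encodes the histidine-rich calcium-binding protein of the reticulum lumen, which binds both triadin and the calcium pump. Its sham libraries held 698, 788 and 863 CPM (lowest, median, highest) and its infarct zone libraries 7.24, 11.4 and 180 CPM. The distance between infarct zone replicate 1 and the next library, at 28.9 CPM, was wide. From 782 ± 55.6 CPM (SD, n = 8) to 31.9 ± 55.9 CPM (SD, n = 9) the log2 fold change was -4.63 ± 0.57 (SE, edgeR adjusted p = 1.51e-07), and without replicate 1 it was -6.02. DESeq2 gave -3.90, and the fit with the replicate number as a block -5.65.

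Atp2a2 and Pln serve calcium reuptake. Atp2a2 (ENSMUSG00000029467, chromosome 5, 122453513 to 122502225, minus strand) encodes SERCA2, the calcium pump of the reticulum. It held 7950 to 10825 CPM in sham with a median of 9463 CPM, and 283 to 2476 CPM in the infarct zone with a median of 373 CPM. Replicate 1 was again the highest, and the other 8 reached at most 548 CPM, far under the lowest sham library. The difference between 9170 ± 966 CPM (SD, n = 8) and 624 ± 701 CPM (SD, n = 9) was -3.88 ± 0.40 (log2, SE, edgeR adjusted p = 1.32e-08). Without replicate 1 it was -4.59. The annotated features inside Atp2a2 had at most 188 counts in any library.

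Pln (ENSMUSG00000038583, chromosome 10, 53337667 to 53345987, plus strand) encodes phospholamban, which holds the pump in check until it is phosphorylated. Levels in sham were 4567 CPM at the lowest, 5909 CPM at the median and 6983 CPM at the highest. In the infarct zone they were 188, 287 and 1900 CPM in the same order, and the groups did not overlap. The means of 5849 ± 970 CPM (SD, n = 8) and 494 ± 538 CPM (SD, n = 9) differed by -3.57 ± 0.40 (log2, SE, edgeR adjusted p = 4.17e-08), and by -4.24 without replicate 1. The opposite-strand gene Cep85l covers the 3′ end of Pln, and its own feature had at most 38 counts in any library. The sources used here do not say whether counting used strand.

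Dhrs7c (ENSMUSG00000033044, chromosome 11, 67798187 to 67816002, plus strand) encodes a dehydrogenase of the sarcoplasmic reticulum found in striated muscle. It ran from 73.6 to 114 CPM in sham with a median of 96.2 CPM. In the infarct zone it ran from 0 to 14.1 CPM with a median of 1.32 CPM. Outside replicate 1 no infarct zone library had more than 3.40 CPM, and none had more than 8 counts. The log2 fold change from 95.8 ± 14.0 CPM (SD, n = 8) to 2.86 ± 4.34 CPM (SD, n = 9) was -5.24 ± 0.40 (SE, edgeR adjusted p = 1.1e-10), the largest fitted fall of the 9 genes, and without replicate 1 it was -6.28. Its distance from Hrc was within their errors.

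**Figure D1:**
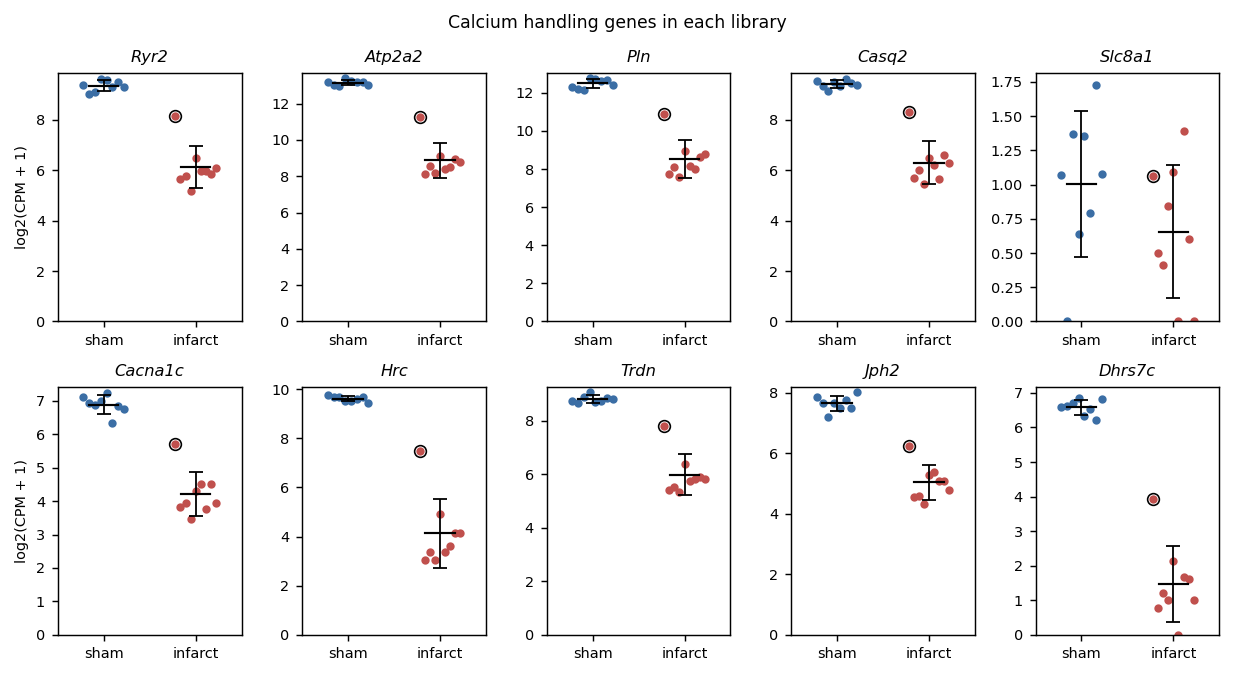
Level of each of the 10 calcium handling genes in every library, as log2(CPM + 1) on the vertical axis, for 8 sham libraries (blue) and 9 infarct zone libraries (red). Horizontal bars are means and error bars are SD, infarct zone replicate 1 is ringed, and vertical scales differ between genes. In all genes but Slc8a1 the infarct zone points lie wholly below the sham points, and replicate 1 lies highest of the infarct zone.

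Counted together, 9 of 9 tested genes were called lower and 0 higher, where 33.1% of all genes tested were called lower and 36.3% higher. In each of the 9, all 9 infarct zone libraries lay below all 8 sham libraries, which held for 16.5% of all genes tested. The median log2 fold change of the 9 genes was -2.97, beside 0.054 over all genes tested. Leaving out any 1 library left all 9 called lower. Without infarct zone replicate 1 each fitted fall was larger. Ryr2 was then at -3.53, Casq2 at -3.39, Trdn at -3.11, Cacna1c at -2.99 and Jph2 at -2.85 (log2). With total counts as library sizes all 9 were still called lower, with smaller falls of -1.54 (Jph2) to -4.22 (Dhrs7c), beside a median over all genes of 1.14. Infarct zone replicate 1 retained 14.8% (Dhrs7c) to 50.1% (Trdn) of the sham mean, and the mean of the other 8 infarct zone libraries was 1.52% (Dhrs7c) to 14.6% (Jph2) of it.

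The infarct zone also held less of every cardiomyocyte marker and more of most fibroblast markers and of every macrophage and monocyte marker. All 13 cardiomyocyte markers were called lower, with a median log2 fold change of -3.01. Of the 9 fibroblast markers 8 were called higher, and their sum was 1628 to 3130 CPM per sham library and 13006 to 21050 CPM per infarct zone library. All 9 macrophage and monocyte markers were called higher, with sums of 408 to 588 CPM per sham library and 2248 to 5749 CPM per infarct zone library. Neutrophil markers summed to 5.00 to 13.1 CPM per sham library and 15.6 to 233 CPM per infarct zone library. Of these 6 markers 3 were tested and all 3 were higher. They passed the filter through the infarct zone, where they are high, so this is a description. Of 7 endothelial markers 3 were lower and 4 not called, and of 8 smooth muscle and pericyte markers 5 were lower and 3 higher. None of the 8 lymphocyte markers had enough counts, and among 8 skeletal muscle markers only Tnni2 and Tnnt3 did, again through the infarct zone. Of that pair 1 was called higher, and Myh4 had 0 counts in all libraries. The part of these cells in the falls was not tested. The rescaling that follows cannot test it, since fewer muscle cells and less RNA per cell would lower its contractile genes alike.

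To ask how far each calcium handling gene differed from contractile transcripts of the same tissue, the libraries were rescaled by 12 contractile genes: Tnnt2, Tnni3, Tnnc1, Myl2, Myl3, Mybpc3, Actn2, Ttn, Ldb3, Myoz2, Myom1 and Myom2. Which cells the transcripts of each calcium handling gene came from was not tested. On this scale 0 stands for a fall equal to the middle of these 12, and the median of all genes moves to 3.52 on the log2 scale. Of the 9 genes tested 4 were then called lower and 1 higher, and 4 were not called. Over all genes tested, 96.4% were called on this scale, 0.984% lower and 95.4% higher. Cardiomyocyte genes outside calcium handling were uneven too. Of the 13 cardiomyocyte markers 5 were called lower, 3 higher and 5 not, and of the 12 scaling genes themselves 3 were called lower, 2 higher and 7 not. With TMM scaling the falls of those 12 ran from -4.19 (Tnni3) to -2.20 (Tnnt2) in log2. That range holds every tested calcium handling gene, Jph2 included, except Hrc and Dhrs7c.

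The 4 lower genes were Dhrs7c, Hrc, Atp2a2 and Pln. Relative to the contractile genes, Dhrs7c changed by -2.44 ± 0.39 (log2, SE, edgeR adjusted p = 7.44e-08) and Hrc by -2.20 ± 0.30 (edgeR adjusted p = 1.92e-09). Atp2a2 changed by -0.99 ± 0.24 (edgeR adjusted p = 1.13e-04) and Pln by -0.69 ± 0.24 (edgeR adjusted p = 0.00625). On this scale too, all 4 had their infarct zone libraries entirely under the sham range, replicate 1 included, which held for 0.472% of all genes tested. For Hrc the scaled counts of sham were 490.4 to 617 and those of the infarct zone 72.2 to 248, with replicate 1 the highest. For Atp2a2 they were 5953 to 7501 and 2606 to 4037, and for Pln 3426 to 4838 and 2195 to 2841. The contractile gene Tnni3, at 5407 to 10950 and 2440 to 3705, was separated in the same way. The calls of Atp2a2 and Pln depended on which contractile genes were used. With Tnnt2, Tnni3, Tnnc1, Myl2, Myl3 and Mybpc3 alone, Atp2a2 changed by -0.47 (edgeR adjusted p = 0.110) and Pln by -0.18 (edgeR adjusted p = 0.544), whereas Hrc at -1.73 and Dhrs7c at -1.97 were still called.

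Ryr2 and Casq2 were not called different from the 12 contractile genes. Ryr2 differed by 0.049 ± 0.27 (log2, SE, 95% interval -0.47 to 0.57, edgeR adjusted p = 0.860) and Casq2 by 0.15 ± 0.26 (95% interval -0.37 to 0.66, edgeR adjusted p = 0.584). Differences inside these intervals, in either direction, were not excluded. Trdn at 0.44 ± 0.27 (95% interval -0.087 to 0.98, edgeR adjusted p = 0.110) and Cacna1c at 0.55 ± 0.29 (95% interval -0.026 to 1.13, edgeR adjusted p = 0.0692) were not called with all libraries. Without infarct zone replicate 1 both were called higher, at 0.49 (edgeR adjusted p = 0.00795) and 0.62 (edgeR adjusted p = 0.00297). Against the 6 troponin, light chain and Mybpc3 genes alone, Casq2 at 0.69 (edgeR adjusted p = 0.0352), Trdn at 0.98 (edgeR adjusted p = 0.00392) and Cacna1c at 1.09 (edgeR adjusted p = 0.00314) were called higher as well, and Ryr2 at 0.57 was not (edgeR adjusted p = 0.0831). Jph2 was called higher at 0.68 ± 0.29 (edgeR adjusted p = 0.0269), where 7 of 9 infarct zone libraries exceeded the sham maximum and 1, replicate 1, was under the sham minimum. Over all genes tested, 71.3% had every infarct zone library above every sham library on this scale. The call of Jph2 was lost, with values of 0.56 to 0.65, when infarct zone replicate 6 or 7 or sham replicate 3, 5 or 7 was left out.

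**Figure D2:**
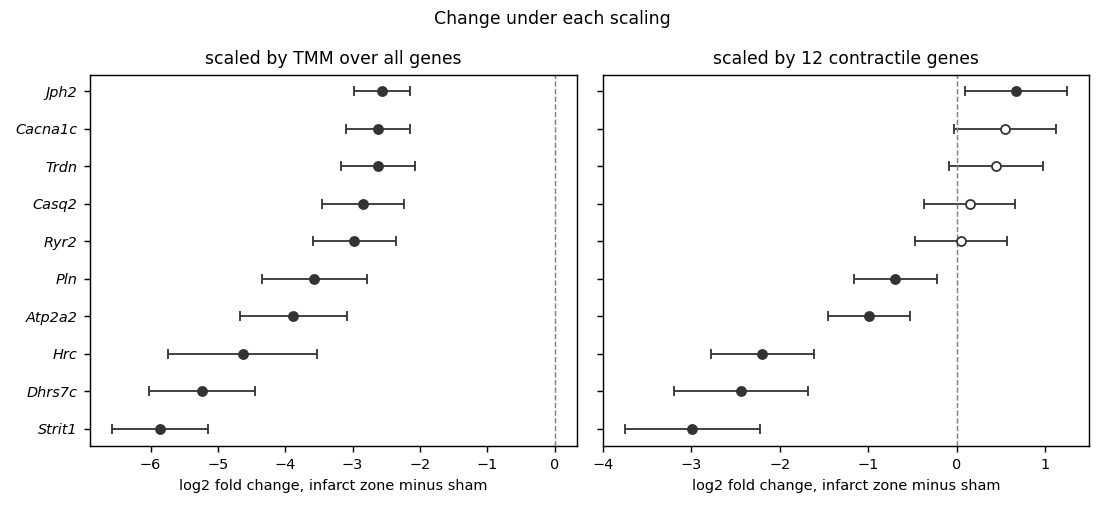
Log2 fold change of infarct zone against sham for the 9 tested calcium handling genes and the pump regulator Strit1, with libraries scaled by TMM over all genes (left) and by 12 contractile genes (right). Points are estimates, bars are 95% intervals from the SE, and filled points passed an adjusted p of 0.05. On the left all lie below -2, and on the right Jph2, Cacna1c, Trdn, Casq2 and Ryr2 lie at or above 0 while Pln, Atp2a2, Hrc, Dhrs7c and Strit1 lie below it.

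A ratio of counts between a pair of genes in the same library does not depend on how libraries are scaled. Of 10 pairs that work together 9 could be formed, and each was compared by an exact two-sided permutation test over the 24310 ways to assign 8 of 17 libraries, with p-values adjusted over the 9. The pair of Slc8a1 and Atp2a2 was left out for want of Slc8a1 counts. Differences are infarct zone minus sham in mean log2 ratio ± SE.

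Ryr2, a gene of release, and Atp2a2, a gene of reuptake, shifted against each other. The ratio of Ryr2 to Atp2a2 ran from -3.99 to -3.68 in the sham libraries and from -3.13 to -2.44 in those of the infarct zone (log2), so that the groups did not overlap. The difference was 1.04 ± 0.097, a 2.05-fold rise in the ratio (exact permutation p = 4.11e-05, the smallest it can give, adjusted 1.85e-04). Such a shift was not particular to this pair. Scaled by the contractile genes, Tnni3 fell from 5407 to 10950 in sham to 2440 to 3705 in the infarct zone. Tnnt2 rose on that scale from 3385 to 4528 in sham to 5543 to 8298 in the infarct zone. The share of all gene pairs that separate was not computed. Of the pump and its inhibitor, Pln to Atp2a2 rose by 0.31 ± 0.081, or 1.24-fold, with 7 of 9 infarct zone libraries over the sham maximum (exact permutation p = 0.00119, adjusted 0.00215).

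Around the release channel, Cacna1c to Ryr2 rose by 0.52 ± 0.16 (exact permutation p = 0.00494, adjusted 0.00635) and Jph2 to Ryr2 by 0.60 ± 0.17 (exact permutation p = 0.00465, adjusted 0.00635). The groups overlapped in both, with 5 and 7 infarct zone libraries over the sham maximum, and replicate 1 lay inside the sham range in each. Casq2 to Ryr2 differed by 0.11 ± 0.12 (exact permutation p = 0.363, adjusted 0.363), and its groups overlapped in most libraries. Trdn to Casq2 rose by 0.28 ± 0.11 (exact permutation p = 0.0267, adjusted 0.0300), with 3 libraries over the sham maximum. The call was lost, with differences of 0.22 to 0.27 and adjusted values of 0.0517 to 0.0634, without any 1 of infarct zone replicates 4, 5 and 7 and sham replicates 1, 2 and 6.

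Hrc and Dhrs7c fell against their partners. Hrc to Casq2, both luminal calcium-binding proteins, ran from -0.049 to 0.54 in sham, was -0.83 in infarct zone replicate 1 and ran from -2.89 to -1.59 in the other 8. Its difference was -2.43 ± 0.23, a 5.38-fold lower ratio (exact permutation p = 8.23e-05, adjusted 1.85e-04). Dhrs7c to Ryr2 differed by -2.43 ± 0.36 (exact permutation p = 4.11e-05, adjusted 1.85e-04), also with no overlap, though its size depended on the prior count added to low counts and was -1.62 with a prior count of 5.

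The last pair joins Ryr2 with Fkbp1b, which encodes calstabin 2, a small protein bound to the ryanodine receptor. Fkbp1b passed the filter through the infarct zone, where it is high, so its values are a description. It had 0 to 4 counts per sham library and 7 to 47 per infarct zone library, or 0.969 ± 0.728 CPM (SD, n = 8) and 5.86 ± 1.26 CPM (SD, n = 9). Its ratio to Ryr2 lay above every sham library in all 9 infarct zone libraries. The group difference was 5.37 ± 0.47 with a prior count of 1 and 4.18 with a prior count of 5. The p-value of this ratio was among the 9 adjusted together and is not used here. The gene itself was lowest of the infarct zone in replicate 1, at 3.62 CPM or 10 counts, close to replicate 5 at 3.96 CPM or 7 counts. Replicate 1 was the infarct zone library with the most cardiomyocyte transcripts, but its rank here rests on these few counts. Which cells the transcripts of Fkbp1b came from was not tested.

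**Figure D3:**
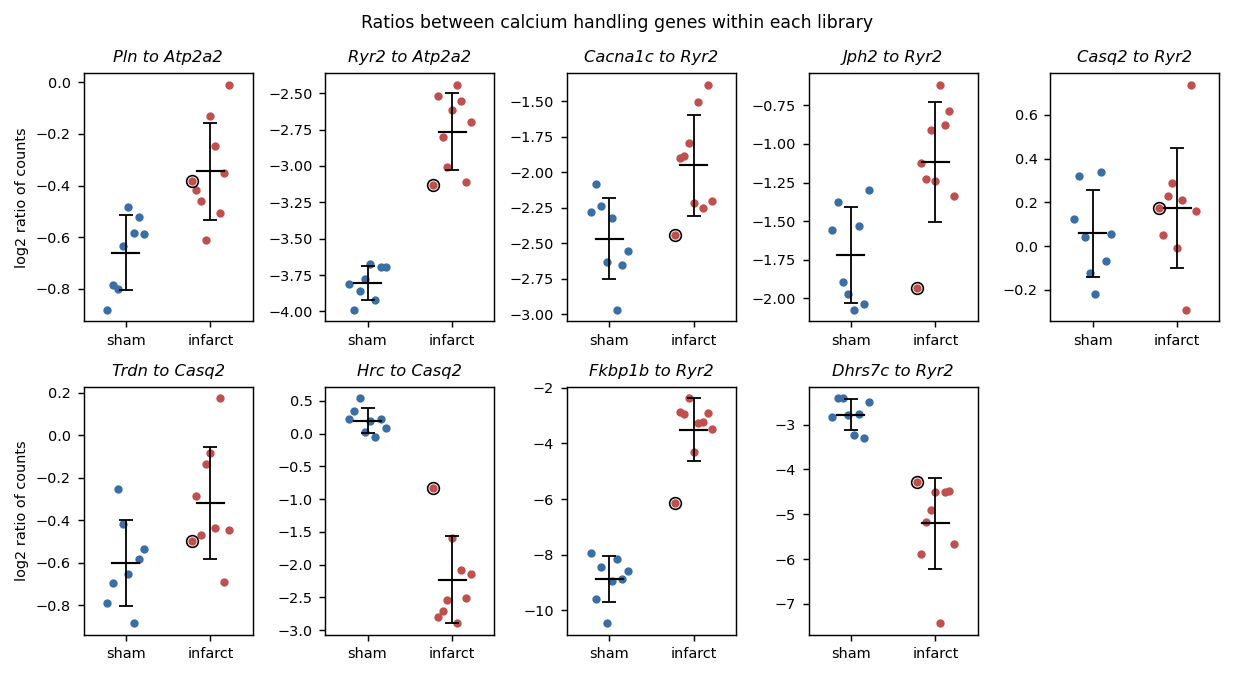
Log2 ratio of counts between pairs of calcium handling genes in each library (prior count 1), for 8 sham libraries (blue) and 9 infarct zone libraries (red, replicate 1 ringed), with means and SD. Vertical scales differ between pairs. Ryr2 to Atp2a2 and Fkbp1b to Ryr2 lie higher in all 9 infarct zone libraries than in any sham library, Hrc to Casq2 and Dhrs7c to Ryr2 lie lower, and Casq2 to Ryr2 overlaps.

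Other genes of calcium handling were listed by role in 9 groups. Of their 114 genes 94 were tested, 47 of these were called lower and 29 higher, where 33.1% of all genes tested were lower and 36.3% higher. With total counts as library sizes 30 were lower and 50 higher, and scaled by the contractile genes 2 were lower and 80 higher, so directions below are those of TMM scaling. The genes with the lowest and the highest fold change of each group are given here. Of these, Fkbp1b, Orai2, Cacnb3 and Mcub passed the filter through the infarct zone, where they are high, so their higher calls are descriptions.

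Among partners of the L-type channel, 6 of 9 tested genes fell, 1 rose and 2 were not called, with a median log2 fold change of -1.61. Cacnb2, the main cardiac β subunit that brings the channel to the membrane, changed by -2.90 ± 0.22 from 48.5 ± 7.14 CPM (SD, n = 8) to 6.74 ± 3.74 CPM (SD, n = 9, edgeR adjusted p = 8.5e-11). Cacnb3, another β subunit that is also found in nerve and immune cells, was highest at 2.34 ± 0.26, from 2.86 ± 1.44 CPM to 14.9 ± 2.99 CPM. The value of Cacnb3 is a description, since it passed the filter through the infarct zone and had 0 to 9 counts per sham library. Scaled by the contractile genes, Cacnb2 was at 0.35 and not called (edgeR adjusted p = 0.295).

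Of the release complex and dyad, 9 of 15 tested genes fell, 5 rose and 1 was not called, with a median of -1.15. Jph1, the junctophilin best known from skeletal muscle, changed by -3.44 ± 0.29 from 17.7 ± 4.72 CPM (edgeR adjusted p = 4.89e-10). The highest fitted value was that of Fkbp1b, at 2.53 ± 0.35, which had too few counts to be tested in 10 of the 27 alternatives. Of 8 genes of the transverse tubule 7 fell and 1 rose, with a median of -2.76. Tcap, a titin cap protein of the Z-disc and tubule, changed by -4.33 ± 0.44 (edgeR adjusted p = 7.84e-09), and by -5.04 without infarct zone replicate 1. Bin1, a membrane-bending protein that shapes transverse tubules and is also expressed in many other cells, rose by 2.03 ± 0.17 from 9.38 ± 1.90 CPM to 38.0 ± 8.49 CPM (edgeR adjusted p = 4.39e-10).

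Regulators of the pump fell in 5 of 7 tested genes, 1 rose and 1 was not called, with a median of -2.32. The lowest was Strit1, listed in the annotation as Gm34302 (ENSMUSG00000103476), which encodes DWORF, a micropeptide that displaces phospholamban from the pump. It ran from 79.7 to 149 CPM in sham with a median of 97.4 CPM, and from 0 to 9.42 CPM in the infarct zone with a median of 1.25 CPM. No infarct zone library other than replicate 1 exceeded 1.70 CPM, and none of those had more than 10 counts, so the size of the fall is uncertain. Its log2 fold change was -5.86 ± 0.36 (edgeR adjusted p = 4.46e-12), or -6.65 without replicate 1, and relative to the contractile genes it was -2.99 ± 0.39 (edgeR adjusted p = 5.79e-10), with the groups fully separated on both scales. Tmem203, an ER membrane protein of calcium homeostasis, was the highest at 0.68 ± 0.27 (edgeR adjusted p = 0.0304), a call lost, at 0.54 to 0.64, without sham replicate 2, 3, 4 or 7 or infarct zone replicate 4. Sln, the atrial pump inhibitor sarcolipin, was not tested. It ran from 0.770 to 26.1 CPM in sham and from 0 to 1.45 CPM in the infarct zone. Of 6 tested atrial markers 4 were lower and 2 higher, between Myl7 at -4.97 and Nppa, a natriuretic peptide gene, at 3.21.

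Downstream of the signal, 8 of 14 calcium-dependent kinases and phosphatases fell, 3 rose and 3 were not called, with a median of -0.50. Camk2a was the lowest at -3.26 ± 0.23 (edgeR adjusted p = 3.19e-11), and Camkk2, a kinase that activates other calmodulin-dependent kinases, the highest at 1.01 ± 0.18 (edgeR adjusted p = 2.73e-05). Of 12 genes of mitochondrial calcium uptake 8 fell, 3 rose and 1 was not called, with a median of -1.07. Vdac1, the outer membrane channel, changed by -2.12 ± 0.23 (edgeR adjusted p = 1.79e-08). Mcub, the dominant-negative subunit of the uniporter, was highest at 2.48 ± 0.23, from 3.40 ± 1.78 CPM (SD, n = 8) to 19.3 ± 4.05 CPM (SD, n = 9). The value of Mcub is a description, since it passed the filter through the infarct zone and had 2 to 13 counts per sham library.

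The last lists hold calcium genes that most cells use, and a few kin of the cardiomyocyte genes. Of 12 tested genes of store-operated entry and inositol trisphosphate receptors 2 fell, 4 rose and 6 were not called, with a median of 0.23. They ran from Saraf, the inhibitor of store-operated entry, at -1.15 ± 0.12 (edgeR adjusted p = 1.72e-08) to Orai2, a pore subunit, at 2.74 ± 0.27. The value of Orai2 is a description, since its sham libraries had 1 to 3 counts each and it passed the filter through the infarct zone, with 10 to 55 counts. With total counts as library sizes Saraf was at -0.081 and not called (edgeR adjusted p = 0.478). Of 5 tested other pumps, exchangers and release channels 2 fell, 1 rose and 2 were not called, from Casq1, the skeletal calsequestrin, at -3.25 ± 0.40 (edgeR adjusted p = 1.45e-07, or -4.07 without infarct zone replicate 1) to the plasma membrane pump Atp2b1 at 0.62 ± 0.13 (edgeR adjusted p = 1.58e-04). Among 12 general calcium-binding proteins of the reticulum, 10 rose and 2 were not called, with a median of 0.88. Their highest was Rcn3, a chaperone of the secretory pathway, at 2.75 ± 0.14 (edgeR adjusted p = 4.23e-13), and their lowest Rcn2 at 0.029 ± 0.11 (edgeR adjusted p = 0.825).

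**Figure D4:**
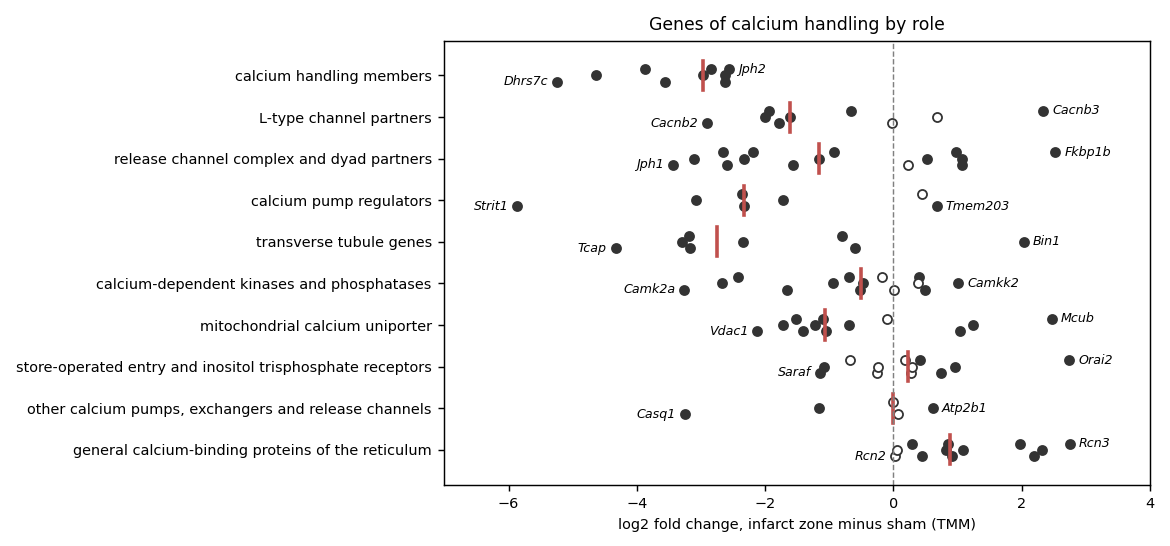
Log2 fold change of infarct zone against sham (TMM scaling) for every tested gene of the 10 calcium handling genes and of 9 other lists by role. Each circle is a gene, filled where the adjusted p was under 0.05, red bars are list medians, and the lowest and highest gene of each list is named. The 10 calcium handling genes lie lowest as a list, with a median of -2.97, and general calcium-binding proteins of the reticulum highest, with a median of 0.88.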

How the data were processed

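The authors isolated total RNA with DNase treatment, made 3′ end libraries with molecular identifiers, trimmed reads with Cutadapt, mapped them to mm10 and counted genes with HTSeq. Their processing notes also name Bowtie2. The deposited values are raw counts, and neither the annotation release nor the treatment of multi-mapped reads is given in the sources used here. Identifiers were joined to a GRCm38 annotation (31521 of 31647 features), where Strit1 was found through its RefSeq synonym. The 35 merged features (0.0919 to 0.215% of counts) stayed in library sizes and tests. No 3′ end of the 10 genes (last 500 bases) matched another gene over at least 100 bases at 95% identity (BLAST 2.17.0). No library was a copy of another (chi-square per degree of freedom 2.41 to 252 over 136 pairs). Each library was taken as 1 mouse.

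Genes passed filterByExpr and were tested across all 17 libraries, with no covariate, by the two-sided quasi-likelihood F-test of edgeR 4.0.16 (R 4.3.3). SEs were derived from the F statistic. Rescaled fits used the median of count ratios over the contractile genes as size factors. Ratios used a prior count of 1. Alternatives were DESeq2 size factors, upper quartile and total count scaling, the Wald test of DESeq2 1.42.0, other filters on low counts, thinning, a replicate block, removal of mitochondrially encoded features, split contractile gene sets, a prior count of 5, medians and the omission of each library. The statistics were tested on simulated data. For edgeR few genes were changed there, equally up and down, which does not check scaling where most genes differ, as here. Named genes were the 10 genes, both genes of each ratio and the lowest and highest tested gene of each list. The genes and lists were chosen with earlier results of these data known. Python 3.11.15, SciPy 1.17.1 and Matplotlib 3.10.9 were used.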

Additional observations from a re-analysis of the deposited data

Results flagged for a closer look

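Infarct zone replicate 1 lay far above the other 8 infarct zone libraries in all 9 tested genes. Its gap to the next library, as a share of the range of the infarct zone, was 0.784 for Ryr2, 0.879 for Atp2a2, 0.817 for Pln, 0.809 for Casq2, 0.720 for Cacna1c, 0.875 for Hrc, 0.765 for Trdn, 0.601 for Jph2 and 0.760 for Dhrs7c, all above Dixon's 95% critical value for 9 samples. These were 9 of 36 groups examined, where chance gives about 1 in 20, and the 9 are 1 library and not independent. The same library had the highest cardiomyocyte marker sum and mitochondrial share of the infarct zone, and their part in the difference was not tested.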

How the results depend on the processing

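The 9 calls toward lower levels held under 26 of 27 alternatives of scaling, filter, test, block and left-out libraries. The exception was scaling by contractile genes, which left 4 lower and 1 higher, since it centres on the middle of those genes' falls and moves the median of all genes to 3.52. It left 121 of all genes lower and 11738 higher, and 2 genes of the other lists lower and 80 higher. It moved Jph2 (0.68), Vdac1 (1.16) and Saraf (2.24) to higher calls, and left Ryr2 (0.049), Casq2 (0.15), Trdn (0.44), Cacna1c (0.55) and Cacnb2 (0.35) above 0 and Camk2a (-0.0016), Jph1 (-0.15) and Casq1 (-0.40) below it, none of the 8 called. Total counts alone gave 1524 genes lower and 9203 higher, and 30 and 50 in the other lists, and left Saraf not called (-0.081). A minimum mean of 50 counts, which tests fewer genes, gave 5239 calls, 2492 lower and 2747 higher. Rcn2, not called in the main comparison, was called higher with total counts alone (1.12, edgeR adjusted p = 1.34e-07) and with contractile scaling (3.54, edgeR adjusted p = 8.45e-13), and was -0.080 after thinning and -0.038 to 0.072 with a library left out, below 0 without sham replicate 1 or 7. Relative to contractile genes, the troponin, light chain and Mybpc3 genes alone left 2 genes lower and 4 higher, leaving out libraries gave 0 to 3 higher, and Ryr2 was then -0.030 to 0.096, below 0 without infarct zone replicate 7, and 0.57 with the troponin, light chain and Mybpc3 genes. The ratio of Trdn to Casq2 was 0.18 by medians (adjusted exact permutation p = 0.132) and 0.22 to 0.33 with a library left out. The cause of these changes was not tested except where the alternative itself fixes it.

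The replicate numbers did not pair the libraries: over 8 pairs the correlations of deviations ran from -0.22 to 0.13, with 1 over 0.1, and 1 sham library correlated best with its own number. With the replicate number as a block 9 genes were still lower and 0 higher, in all 8079 genes were called, and relative to contractile genes 4 were lower and 0 higher, Jph2 being at 0.68 (adjusted p = 0.0950, edgeR). Infarct zone replicate 9 has no sham partner and drops out of that fit. Slc8a1 and Sln had too few counts for the filter, and Fkbp1b, Orai2, Cacnb3 and Mcub had few counts in sham.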
